A study of Mus musculus with 16 samples.

Results

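Transcripts of 10 blood-brain barrier (BBB) transporters were followed in mouse cerebral cortex after systemic inflammation given at 2 times of day. The 10 genes are listed solute carriers and ABC exporters of brain endothelium (Slc2a1, Slc16a1, Slc7a5, Slc3a2, Mfsd2a, Slco1a4, Slco1c1, Slc22a8, Abcb1a and Abcg2), found by gene symbol among the 55487 genes of the deposited table. All 10 were among the 18859 genes with enough reads to be tested. Wild-type C57Bl6 male mice, 2 months old, received i.p. lipopolysaccharide (LPS, a bacterial cell wall component that provokes inflammation) at 2 mg/kg or PBS in 2 injections on consecutive days. Injections were given at zeitgeber time (ZT) 1, early in the light phase, or at ZT13, early in the dark phase, and cortex was taken on the day after the last one. Bulk RNA was sequenced after ribosomal RNA depletion at each time from 3 mice given PBS and 5 given LPS, 16 in all. Levels are in CPM, the reads on a gene for every 1000000 reads on all genes of that sample.

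Brain capillary endothelial cells are sealed by tight junctions, so polar nutrients enter the brain through carriers in their membranes and many lipid-soluble drugs are returned to the blood by ATP-driven pumps. Slc2a1 (GLUT1) carries glucose, Slc16a1 (MCT1) carries lactate and ketone bodies, and the heavy chain encoded by Slc3a2 pairs with the light chain encoded by Slc7a5 (LAT1) to carry large neutral amino acids. Mfsd2a imports lysophosphatidylcholine carrying docosahexaenoic acid and is known to restrain vesicle traffic across the endothelium. Slco1a4 and Slco1c1 (OATP1A4 and OATP1C1, the latter a thyroxine carrier) and Slc22a8 (OAT3) move organic anions, whereas Abcb1a (P-glycoprotein) and Abcg2 (BCRP) export drugs. Several of these genes are also used outside the endothelium: Slc2a1 by astrocytes, Slc3a2 by most cells, Slco1c1 by astrocytes and choroid plexus, and Slc22a8 by choroid plexus and meninges. In whole cortex, fewer cells of a type and less RNA per cell cannot be told apart.

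The libraries held 20251852 to 29112760 reads on genes, and a transporter had 66 to 3896 reads in a sample. Replicates of a group correlated at 0.987 to 0.994 across genes. Gfap, an astrocyte gene raised by inflammation, averaged 116 CPM in PBS mice and 731 in LPS mice at ZT1, and 118 and 1013 at ZT13. Dbp, a clock output gene, ran from 37.3 to 55.5 CPM at ZT1 and from 91.5 to 110.5 CPM at ZT13 in PBS mice, and Per2 averaged 59.9 and 82.9 CPM. The titles set the groups here; in 12 samples another label field names the opposite treatment. By title, every LPS mouse had at least 572 CPM of Gfap and every PBS mouse at most 123 CPM. Neuron markers summed to 5636 to 5996 CPM in PBS mice and to 5169 to 5544 CPM in LPS mice, with no overlap. Choroid plexus markers, foreign to cortex, ranged from 14.8 to 982 CPM between samples, with low and high samples in each group. ZT1 LPS replicate 2 had the lowest endothelial marker sum of the ZT1 LPS mice (333 CPM against 413 to 529 in the other 4). It also had the lowest sums of microglia, astrocyte and neutrophil markers of that group (195, 1799 and 7.61 CPM) and the highest sum of erythrocyte markers (35.8 CPM). The ZT1 results of the transporters and of the endothelial markers are given with and without this mouse.

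In the GENCODE annotation of GRCm38, Slc2a1 lies at chr4:119108711-119137983 (plus strand), Mfsd2a at chr4:122946850-122961188 (minus), Slc16a1 at chr3:104638668-104658462 (plus) and Abcb1a at chr5:8660077-8748575 (plus). Chromosome 6 holds Abcg2 (chr6:58584523-58695676, plus), Slco1c1 (chr6:141524368-141570177, plus) and Slco1a4 (chr6:141805440-141856199, minus). Slc7a5 lies at chr8:121881150-121907694 (minus), Slc22a8 at chr19:8591254-8611835 (plus) and Slc3a2 at chr19:8706882-8723369 (minus). Expressed per kilobase of annotated exon, the level in ZT1 PBS mice was highest for Slc3a2 at 25.1 CPM per kb, followed by Slc2a1 at 19.2 and Slc7a5 at 14.7, and the ranges of these 3 genes over the mice did not meet. Mfsd2a followed at 5.97 CPM per kb, then Slco1c1 at 5.21, Slc16a1 at 5.15 and Abcb1a at 4.99. The ranges of Slco1c1, Slc16a1 and Abcb1a overlapped, so their order was not larger than the spread between mice, and the range of Slco1c1 (4.56 to 5.81) also met that of Mfsd2a (5.79 to 6.21). Slc22a8 came next at 3.64 CPM per kb, then Slco1a4 at 3.35, and Abcg2 was lowest at 1.27. With the length of the longest transcript in place of all exons, the order below the top 3 changed. Slco1c1 was then at 8.51 CPM per kb, above Mfsd2a at 6.25, and Slco1a4 at 5.63 was above Abcb1a (5.47), Slc16a1 (5.15) and Slc22a8 (4.13). The range of Slco1a4 over the mice (5.52 to 5.76) lay inside that of Abcb1a (5.19 to 5.97), which also met that of Slc16a1 (4.75 to 5.38).

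Promoter sequence from RefSeq (GRCm38.p6) was found for 9 of the 10 genes, in 11 windows, and the 250 bases before each start were searched on both strands. For 6 genes (Slc2a1, Slc16a1, Mfsd2a, Slco1a4, Slco1c1 and Abcg2) a RefSeq start lay at most 34 bases from the GENCODE gene start. The starts of Slc22a8 and Slc3a2 lay 1.93 and 9.47 kb inside the GENCODE gene, the other 2 of Abcg2 12.1 and 56.0 kb inside it, and that of Abcb1a 93.0 kb before it, so these windows may not be the promoter in use in cortex. The letters ACGTG, the core of a hypoxia response element, were found in 4 genes (Slc2a1, Slc16a1, Slc3a2 and Mfsd2a), and 16.6% of the 32851 RefSeq promoters hold them. The E-box CACGTG, which circadian clock factors bind and which contains ACGTG, was found in Slc16a1 alone, and 6.02% of promoters hold it. No window held TTCNNNGAA (a STAT element, in 7.02% of promoters), TTATGTAA (a D-box, in 0.819%) or the kappaB motif of NF-kappaB (in 0.14%). Of the genes that rose after LPS, Slco1a4 and Abcb1a held none of these motifs. The windows of 3 others that rose at one time or both, each with a match and a start near that of GENCODE, are printed here 5′ to 3′, with whole motif matches in capitals. They are Slc16a1 (chr3:104638414-104638663, plus strand), Mfsd2a (chr4:122961189-122961438, minus strand) and Slc2a1 (chr4:119108495-119108710, plus strand, ending where GENCODE starts the gene). The Slc16a1 match lies 200 bases before the RefSeq start, and the Mfsd2a matches lie 107 and 9 bases before it. The Slc2a1 match, 36 bases before its RefSeq start, runs past the end of the printed stretch. A match describes the letters in the window and is not a measured binding site.
Slc16a1: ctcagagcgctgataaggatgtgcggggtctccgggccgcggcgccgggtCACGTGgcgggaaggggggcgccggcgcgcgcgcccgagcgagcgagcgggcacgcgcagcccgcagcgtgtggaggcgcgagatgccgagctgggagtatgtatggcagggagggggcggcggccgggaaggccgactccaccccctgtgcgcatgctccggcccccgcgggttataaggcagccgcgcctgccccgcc
Mfsd2a: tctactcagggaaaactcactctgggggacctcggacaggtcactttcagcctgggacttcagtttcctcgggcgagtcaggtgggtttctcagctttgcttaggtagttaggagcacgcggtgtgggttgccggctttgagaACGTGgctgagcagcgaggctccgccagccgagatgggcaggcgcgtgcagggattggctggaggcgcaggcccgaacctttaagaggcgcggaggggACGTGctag
Slc2a1: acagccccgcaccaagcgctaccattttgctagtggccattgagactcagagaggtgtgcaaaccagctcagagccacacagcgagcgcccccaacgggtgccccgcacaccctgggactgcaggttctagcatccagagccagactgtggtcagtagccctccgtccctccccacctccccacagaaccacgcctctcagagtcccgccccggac

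The response to LPS was compared first, at each time separately. Slc22a8 fell to 34.7% of its PBS mean at ZT1 and to 30.9% at ZT13, and Slc2a1 and Slc3a2 rose at both times. Slco1a4 and Mfsd2a rose at ZT1, while at ZT13 Slc16a1 and Abcb1a rose and Slc7a5 fell. Slco1c1 and Abcg2 did not pass the test at either time. Of the 10 transporters, 4 rose and 1 fell at ZT1, where 16.2% of all genes tested passed (11.1% higher and 5.15% lower), and 4 rose and 2 fell at ZT13, where 28.6% passed (19.2% higher and 9.4% lower). A gene was called at an adjusted p under 0.05 by limma on log2(CPM + 0.5), with Benjamini-Hochberg adjustment over all 18859 genes. With median-of-ratios scaling in place of library totals, the higher share of all calls went from 68.2% to 54.1% at ZT1 and from 67.2% to 51.0% at ZT13. The same scaling moved the median log2 fold change of all genes from 0.04 to -0.00 at ZT1 and from 0.05 to -0.00 at ZT13.

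**Figure D1:**
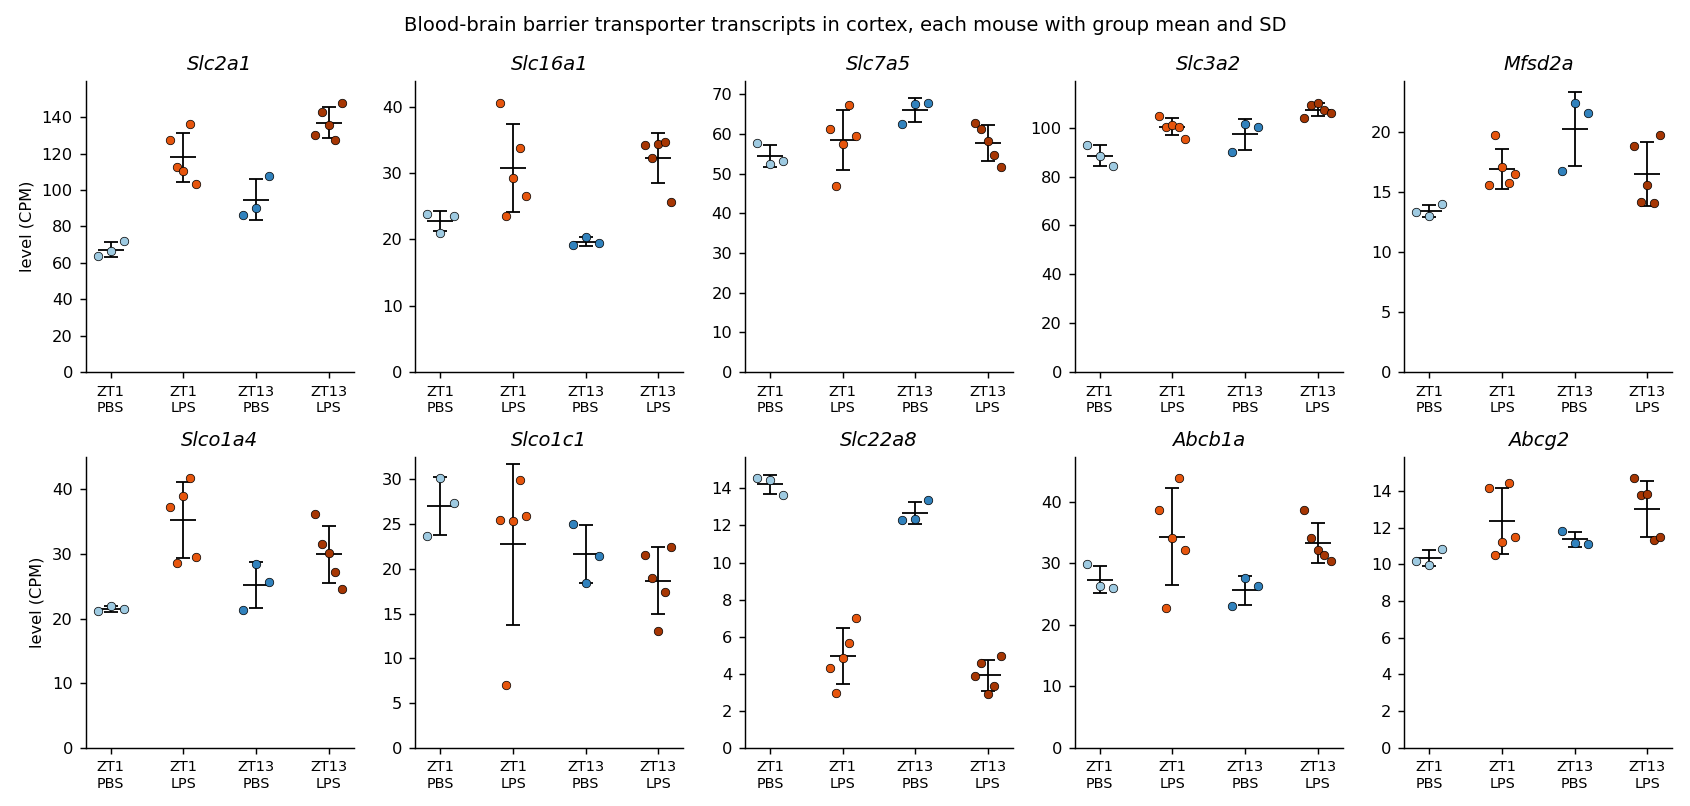
Level of each of the 10 transporters (CPM, axis from 0) in every mouse of the 4 groups, with the group mean and SD; n = 3 PBS and 5 LPS mice at each time. Slc22a8 in LPS mice reached at most 6.98 CPM, below every PBS mouse, and Slco1c1 in ZT1 LPS replicate 2 stood at 7.03 CPM, below the other 15 mice.

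Slc2a1, the glucose carrier, was among the most abundant of the 10 and rose at both times. At ZT1 the PBS mice had 63.5, 66.3 and 71.9 CPM and the LPS mice 127, 113, 110.6, 136 and 103 CPM. At ZT13 the PBS mice had 86.5, 89.96 and 107.8 CPM and the LPS mice 130.4, 143, 136, 128 and 148 CPM. The LPS and PBS mice did not overlap at either time, and the ZT13 PBS mice lay between both ZT1 groups except for 1 mouse that reached into the range of the ZT1 LPS mice. The means were 67.2 ± 4.26 (SD, n = 3) and 118 ± 13.4 CPM (n = 5) at ZT1, and 94.8 ± 11.4 and 137 ± 8.50 CPM at ZT13. The log2 fold change was 0.80 (SE 0.08, limma adjusted p = 8.01e-05) at ZT1 and 0.53 (SE 0.07, adjusted p = 3.97e-05) at ZT13. Leaving out any 1 mouse kept the ZT1 value between 0.75 and 0.85 (0.82 without ZT1 LPS replicate 2) and the ZT13 value between 0.47 and 0.63, past the threshold each time.

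Slc16a1, the monocarboxylate carrier, was higher after LPS at both times, but it passed the test at ZT13 alone. The ZT1 PBS mice had 23.8, 21.0 and 23.6 CPM and the ZT1 LPS mice 40.6, 23.6, 29.3, 33.8 and 26.6 CPM, so that the groups met at 1 LPS mouse. The ZT13 PBS mice had 19.2, 20.4 and 19.4 CPM and the ZT13 LPS mice 34.2, 32.2, 34.3, 34.6 and 25.7 CPM, with no overlap. The log2 fold change was 0.69 (SE 0.09, limma adjusted p = 4.02e-05) at ZT13 and 0.40 (SE 0.14, adjusted p = 0.0790) at ZT1. Without ZT1 LPS replicate 2, the mouse at 23.6 CPM, the ZT1 value was 0.49 and passed (limma adjusted p = 0.0170). It also passed with sample quality weights (0.42, adjusted p = 0.0145), with the replicate block (0.41, adjusted p = 0.0453) and with 1 fit of all 16 samples (0.40, adjusted p = 0.0326). The block compares mice of the same replicate number. LPS mice with no PBS mouse of their number do not enter its estimate, here and in the later comparisons of LPS against PBS.

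The amino acid carrier pair was described by its 2 genes in turn. Slc3a2, the heavy chain, had 92.9, 88.4 and 84.5 CPM in ZT1 PBS mice and 105, 100.2, 101, 100.4 and 95.3 CPM in ZT1 LPS mice. At ZT13 it had 90.1, 102 and 100.1 CPM in PBS mice and 104, 109, 110.3, 107 and 106 CPM in LPS mice. The LPS mice were above the PBS mice at both times, by small amounts. The log2 fold changes were 0.18 (SE 0.05, limma adjusted p = 0.0203) at ZT1 and 0.14 (SE 0.04, adjusted p = 0.0255) at ZT13. Both calls depended on single mice: at ZT1 the adjusted p was 0.0746 without PBS replicate 2 and 0.107 without PBS replicate 3, and at ZT13 it was 0.154 without PBS replicate 1, 0.0548 without LPS replicate 2 and 0.0528 without LPS replicate 3 (limma). They were also lost with median-of-ratios scaling, at 0.14 (adjusted p = 0.0615) and 0.09 (adjusted p = 0.180), with no filter (adjusted p = 0.0570 and 0.0864) and with no intensity trend (0.0709 and 0.0883). The ZT1 value was 0.18 (adjusted p = 0.0225) without ZT1 LPS replicate 2.

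Slc7a5, the light chain that forms the amino acid pathway through the membrane, had 57.8, 52.6 and 53.3 CPM in ZT1 PBS mice and 61.2, 47.0, 57.4, 67.4 and 59.5 CPM in ZT1 LPS mice. At ZT13 it had 62.6, 67.7 and 68.0 CPM in PBS mice and 62.8, 61.3, 58.3, 54.6 and 51.7 CPM in LPS mice. The groups overlapped at both times, at ZT13 through 1 mouse of each group. The log2 fold change was 0.09 (SE 0.09, limma adjusted p = 0.566) at ZT1 and -0.20 (SE 0.06, adjusted p = 0.0297) at ZT13. The fall at ZT13 no longer passed without PBS replicate 2 (adjusted p = 0.109), PBS replicate 3 (0.110) or LPS replicate 4 (0.0673). It was also lost with no filter (adjusted p = 0.147), no intensity trend (0.0927), the replicate block (-0.12, adjusted p = 0.160) and 1 fit of all 16 samples (0.104). The ZT1 value was 0.17 (adjusted p = 0.0825) without ZT1 LPS replicate 2. The ratio of Slc7a5 to Slc3a2 CPM averaged 0.616 in ZT1 PBS, 0.583 in ZT1 LPS, 0.680 in ZT13 PBS and 0.538 in ZT13 LPS mice, and a difference between both genes was not tested.

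Mfsd2a, the lipid carrier, rose at ZT1 and did not pass the test at ZT13. At ZT1 the PBS mice had 13.3, 13.04 and 13.98 CPM and the LPS mice 15.6, 19.7, 17.1, 15.8 and 16.5 CPM, all above the PBS mice. At ZT13 the PBS mice had 16.8, 22.5 and 21.6 CPM and the LPS mice 18.9, 14.2, 15.6, 14.1 and 19.7 CPM, where the groups overlapped. The log2 fold change was 0.32 (SE 0.08, limma adjusted p = 0.0240) at ZT1 and -0.29 (SE 0.12, adjusted p = 0.0939) at ZT13. The rise at ZT1 no longer passed without PBS replicate 1 (adjusted p = 0.0878), PBS replicate 2 (0.0935), PBS replicate 3 (0.0580) or LPS replicate 3 (0.0513), and neither with no filter (0.0804), median-of-ratios scaling (0.27, adjusted p = 0.0537) or 1 fit of all 16 samples (0.0548). It was 0.26 (adjusted p = 0.0220) without ZT1 LPS replicate 2. The value at ZT13 passed as a fall without PBS replicate 1 (-0.42, adjusted p = 0.0274) or LPS replicate 5 (-0.36, adjusted p = 0.0285), and also with median-of-ratios scaling (-0.34, adjusted p = 0.0434) or sample quality weights (-0.33, adjusted p = 0.0476).

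Among the organic anion carriers, Slco1a4 rose, Slc22a8 fell and Slco1c1 did not pass. Slco1a4 had 21.1, 22.02 and 21.4 CPM in ZT1 PBS mice and 37.3, 28.6, 39.0, 41.7 and 29.5 CPM in ZT1 LPS mice, with no overlap. At ZT13 it had 21.4, 28.4 and 25.7 CPM in PBS mice and 36.3, 31.5, 30.1, 27.3 and 24.5 CPM in LPS mice, with overlap. Its log2 fold change was 0.68 (SE 0.12, limma adjusted p = 0.00230) at ZT1 and 0.24 (SE 0.11, adjusted p = 0.127) at ZT13. Without ZT13 LPS replicate 5, the lowest of that group, the ZT13 value was 0.31 (adjusted p = 0.0295), and with the replicate block it was 0.37 (adjusted p = 0.0140). At ZT1 it was 0.75 (adjusted p = 3.93e-04) without ZT1 LPS replicate 2. Slco1c1 had 23.7, 30.1 and 27.3 CPM in ZT1 PBS mice and 25.5, 7.03, 25.4, 30.0 and 25.9 CPM in ZT1 LPS mice. At ZT13 it had 24.98, 18.5 and 21.5 CPM in PBS mice and 21.6, 19.0, 13.1, 17.4 and 22.4 CPM in LPS mice. Apart from the ZT1 LPS mouse at 7.03 CPM, the groups overlapped at both times. The log2 fold changes were -0.39 (95% CI -1.19 to 0.42, limma adjusted p = 0.535) and -0.22 (95% CI -0.53 to 0.09, adjusted p = 0.295), and without that mouse the ZT1 value was -0.02.

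Slc22a8, which carries organic anions such as drugs and neurotransmitter metabolites, showed the largest change of the 10 in both comparisons. At ZT1 the PBS mice had 14.5, 14.5 and 13.6 CPM and the LPS mice 4.29, 2.95, 4.84, 5.64 and 6.98 CPM. At ZT13 the PBS mice had 12.3, 12.3 and 13.3 CPM and the LPS mice 3.85, 4.56, 2.89, 3.33 and 4.93 CPM. Every LPS mouse was below every PBS mouse. The log2 fold change was -1.48 (SE 0.20, limma adjusted p = 4.83e-04) at ZT1 and -1.60 (SE 0.14, adjusted p = 1.34e-06) at ZT13, and it stayed past the threshold with each mouse left out, between -1.61 and -1.33 at ZT1 (-1.33 without ZT1 LPS replicate 2) and between -1.68 and -1.51 at ZT13. These values are on the log2(CPM + 0.5) scale, which understates the change of a gene at this level. Slc22a8 is also a choroid plexus and meningeal transcript, so its values were set beside those marker sums in the same mice. The ZT1 PBS mice at 14.5, 14.5 and 13.6 CPM of Slc22a8 had choroid plexus sums of 14.8, 929 and 21.4 CPM, and the ZT13 PBS mice, all near 12 to 13 CPM, had 982, 17.3 and 558 CPM. Across the LPS mice the choroid plexus sum ran from 18.02 to 872 CPM, while Slc22a8 stayed between 2.89 and 6.98 CPM. Meningeal markers summed to 137 to 221 CPM in PBS mice and 143 to 209 CPM in LPS mice. The 7 genes of that meningeal list went both ways. Slc22a6 (OAT1), a close relative of Slc22a8, fell by 0.63 on the log2 scale at ZT1 (limma adjusted p = 0.00754) and by 0.87 at ZT13 (adjusted p = 1.73e-05), and Igf2 fell by 0.79 at ZT13 (adjusted p = 8.20e-04). The matrix gene Dcn rose by 1.54 at ZT1 (adjusted p = 8.73e-06) and by 2.13 at ZT13 (adjusted p = 1.28e-10), and Col1a1 rose by 0.30 at ZT13 (adjusted p = 0.00502).

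**Figure D2:**
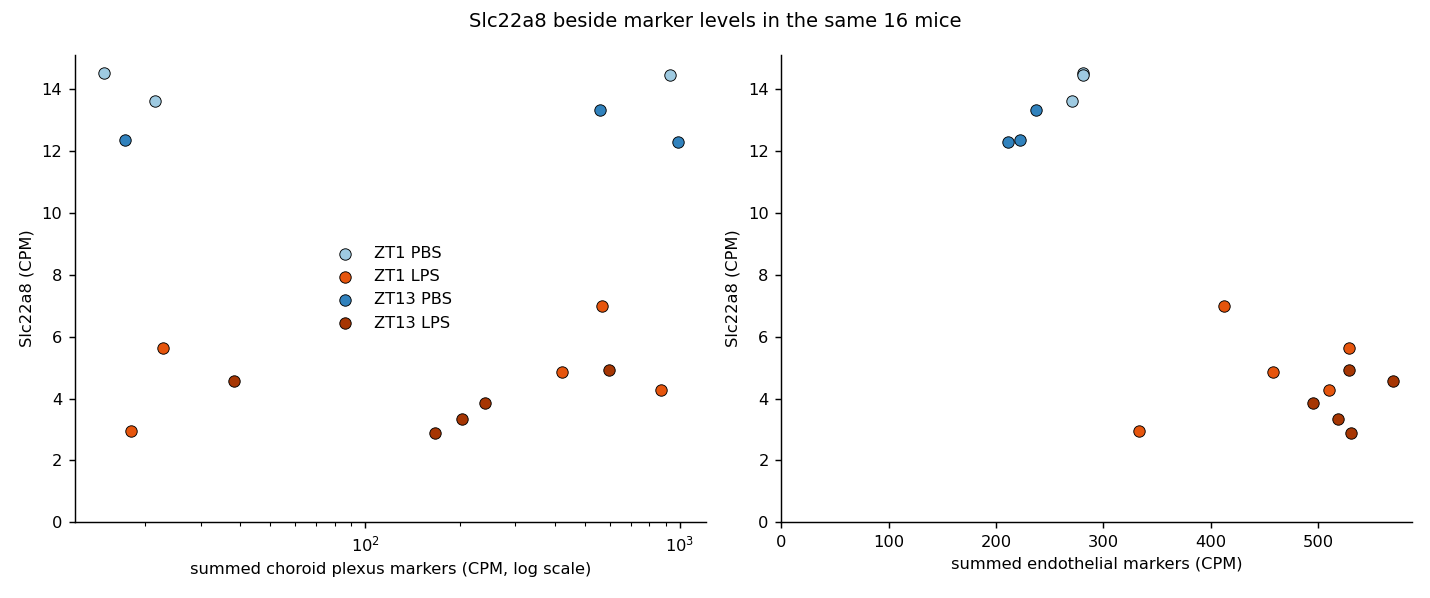
Slc22a8 (CPM, vertical axis from 0) against the summed choroid plexus markers (CPM, log axis, left) and the summed endothelial markers (CPM, right), 1 point for each of the 16 mice, coloured by group. PBS mice lie at 12.3 to 14.5 CPM of Slc22a8 and LPS mice at 2.89 to 6.98 CPM over nearly the whole range of choroid plexus sums, and the endothelial sums of LPS mice (333 to 570 CPM) lie above those of PBS mice (211 to 282 CPM).

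Of the exporters, Abcb1a rose at ZT13. It had 29.8, 26.3 and 25.9 CPM in ZT1 PBS mice and 38.6, 22.7, 34.1, 43.8 and 32.1 CPM in ZT1 LPS mice. At ZT13 it had 23.0, 27.5 and 26.3 CPM in PBS mice and 38.6, 34.0, 32.1, 31.4 and 30.3 CPM in LPS mice. The groups were apart at ZT13, and at ZT1 they overlapped through ZT1 LPS replicate 2 alone, at 22.7 CPM. The log2 fold change was 0.37 (SE 0.08, limma adjusted p = 0.00301) at ZT13 and 0.29 (SE 0.16, adjusted p = 0.260) at ZT1, and without that mouse the ZT1 value was 0.43 and passed (adjusted p = 0.0120). It also passed at ZT1 with sample quality weights (0.38, adjusted p = 0.0487), and the ZT13 call was lost with 1 fit of all 16 samples (adjusted p = 0.0599). Abcg2, the least abundant per kilobase, had 10.2, 9.97 and 10.8 CPM in ZT1 PBS mice and 14.2, 10.5, 11.2, 14.5 and 11.5 CPM in ZT1 LPS mice. At ZT13 it had 11.8, 11.1 and 11.1 CPM in PBS mice and 14.7, 13.8, 13.8, 11.3 and 11.5 CPM in LPS mice. Its groups overlapped at both times, and the log2 fold changes were 0.24 (95% CI -0.00 to 0.48, limma adjusted p = 0.168) and 0.18 (95% CI -0.02 to 0.38, adjusted p = 0.167). Without ZT1 LPS replicate 2 the ZT1 value was 0.29 (adjusted p = 0.0754), and with the replicate block the ZT13 value was 0.30 and passed (adjusted p = 0.0227).

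**Figure D3:**
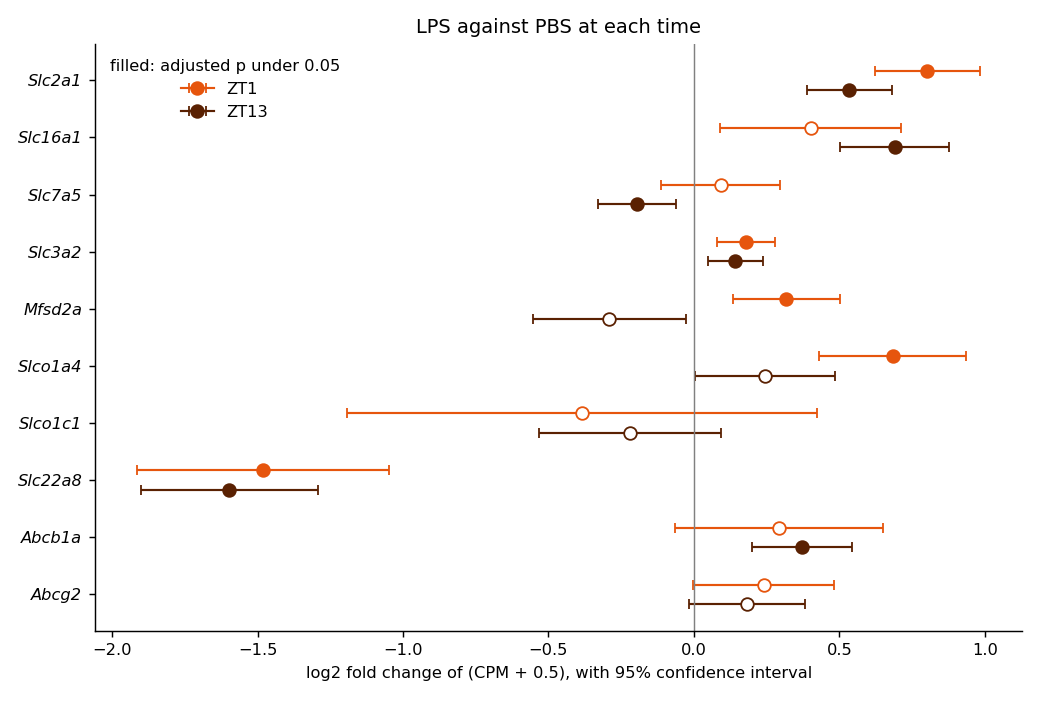
Log2 fold change of LPS against PBS for each transporter at ZT1 and at ZT13, with the 95% confidence interval of the limma fit; filled points have an adjusted p under 0.05. Slc22a8 lies at -1.48 and -1.60, Slc2a1 at 0.80 and 0.53, and the points of Mfsd2a and Slc7a5 fall on opposite sides of 0.

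Set side by side, 3 transporters passed at both times, 2 at ZT1 alone, 3 at ZT13 alone and 2 at neither, and 8 of the 10 had the same sign at both. The shares of all genes in these classes were not taken, so the counts describe the 10 transporters alone. The LPS and PBS mice did not overlap for 4 higher and 1 lower transporter at ZT1, where 15.9% of all genes were apart as higher and 8.41% as lower. At ZT13 they did not overlap for 4 higher and 1 lower, beside 20.9% and 10.3% of all genes. The median log2 fold change of the 10 was 0.27 at ZT1 and 0.16 at ZT13, beside 0.04 and 0.05 over all genes tested. Without ZT1 LPS replicate 2, 7 transporters passed at ZT1, but the shares of all genes given here include that mouse.

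Whether the size of the LPS response differed between the times was tested with the TOD by treatment interaction over all 16 mice, the ZT13 response minus the ZT1 response. None of the 10 passed with limma, where 0.159% of all genes did, and 4 had an unadjusted p under 0.05, as did 9.25% of all genes. The interaction was -0.61 for Mfsd2a (SE 0.16, unadjusted p = 0.00140, limma adjusted p = 0.180), with a lower LPS response at ZT13. It was -0.44 for Slco1a4 (SE 0.18, limma adjusted p = 0.441), -0.29 for Slc7a5 (SE 0.12, adjusted p = 0.465) and -0.27 for Slc2a1 (SE 0.12, adjusted p = 0.488). The other 6 ranged from -0.12 for Slc22a8 to 0.29 for Slc16a1, with 95% intervals of -0.67 to 0.43 and -0.09 to 0.67 (limma). So a call at one time and not at the other, as for Slco1a4, Slc16a1 and Abcb1a, was not accompanied by a difference between the times that passed the test.

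Time of day in PBS mice was compared next. In the study cortex was taken a full day after the last injection. In every comparison of ZT13 with ZT1, times of injection and of collection therefore changed together and cannot be told apart. The glucose carrier Slc2a1 had a log2 difference of 0.49 in favour of ZT13 (SE 0.08, limma adjusted p = 0.0394), and was the 1 transporter called among the 10, where 0.52% of all genes passed. Its 3 ZT13 PBS mice, at 86.5 to 108 CPM, were above its 3 ZT1 PBS mice, at 63.5 to 71.9 CPM. The call did not hold without ZT1 PBS replicate 1 (0.45, adjusted p = 0.138), replicate 2 (0.48, adjusted p = 0.143) or replicate 3 (0.54, adjusted p = 0.120), or without ZT13 PBS replicate 2 (0.52, adjusted p = 0.139), and it was lost with no filter (adjusted p = 0.324) and with no intensity trend (0.235). Mfsd2a was 0.57 higher at ZT13 (SE 0.10, limma adjusted p = 0.0558) and Slc7a5 0.27 higher (SE 0.05, adjusted p = 0.0587), neither past the threshold. Mfsd2a passed without ZT13 PBS replicate 1, the lowest of its group (0.69, adjusted p = 0.0132), and both passed with a minimum of 5 CPM (adjusted p = 0.0364 and 0.0384). The ZT13 mice were all above the ZT1 mice for 4 transporters (Slc2a1, Slc7a5, Mfsd2a and Abcg2) and all below for 2 (Slc16a1 and Slc22a8), beside 9.52% and 9.21% of all genes. The other 4 overlapped. Fitted differences ran from -0.32 for Slco1c1 to 0.57 for Mfsd2a, with a median of 0.13 beside -0.00 over all genes.

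In LPS mice the same comparison gave no call among the 10 (0.0212% of all genes passed), and 2 had an unadjusted p under 0.05 with limma, as did 10.6% of all genes. All 10 overlapped between ZT1 LPS and ZT13 LPS mice, where 1.96% of all genes were apart. Slc2a1 was 0.22 higher at ZT13 (95% CI 0.07 to 0.37, limma adjusted p = 0.248) and Slc3a2 0.10 higher (95% CI 0.02 to 0.17, adjusted p = 0.316). Mfsd2a and Slc7a5, which with Slc2a1 had the largest positive differences in PBS mice, differed by -0.04 (95% CI -0.26 to 0.17) and -0.01 (95% CI -0.19 to 0.17). Without ZT1 LPS replicate 2, 5 of the 10 had an unadjusted p under 0.05 and none passed, and Slco1c1 was then lower in every ZT13 LPS mouse (-0.52, limma adjusted p = 0.152). The shares of all genes above include that ZT1 mouse. The LPS, time and interaction comparisons share their groups of mice and are not independent of each other.

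**Figure D4:**
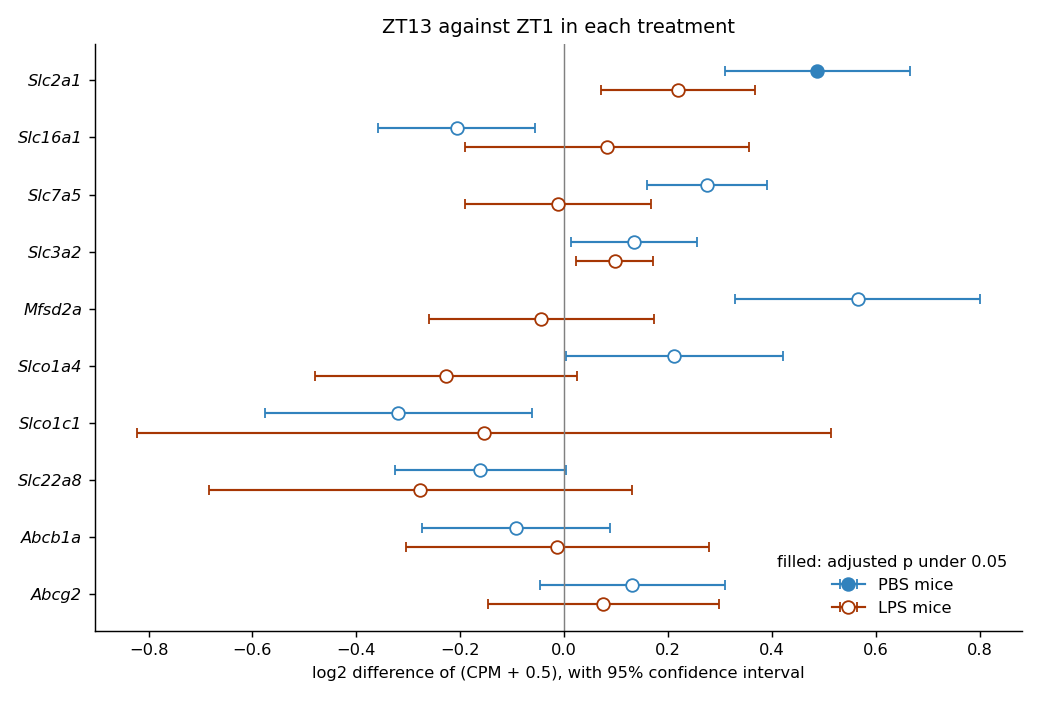
Log2 difference of ZT13 against ZT1 for each transporter in PBS mice and in LPS mice, with the 95% confidence interval of the limma fit; filled points have an adjusted p under 0.05. The one filled point is Slc2a1 in PBS mice at 0.49, and Mfsd2a lies at 0.57 in PBS mice and -0.04 in LPS mice.

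Other transporters and uptake receptors of brain endothelium, a list of 24 genes that were all tested, gave the wider setting. The cells that these transcripts came from cannot be told apart in whole cortex. At ZT1 2 rose, Slco2b1 (an organic anion carrier, 0.67, limma adjusted p = 0.00130) and Insr (the insulin receptor, 0.28, adjusted p = 0.00327), and none fell, while 7 had an unadjusted p under 0.05 (limma), as did 30.3% of all genes. Slco2b1 went from 14.7 to 18.2 CPM in ZT1 PBS mice to 21.9 to 30.2 CPM in ZT1 LPS mice. Without ZT1 LPS replicate 2 or without ZT1 LPS replicate 5 the count at ZT1 was 4. At ZT13 9 rose and 1 fell, where 19.2% of all genes passed as higher and 9.4% as lower (11.1% and 5.15% at ZT1). The largest rises were in Slc38a5 (a glutamine carrier, 1.12, adjusted p = 4.58e-04), Slco2b1 (0.74, adjusted p = 1.79e-04) and Slco2a1 (the prostaglandin carrier, 0.53, adjusted p = 0.0217), and the fall was in Slc30a1 (a zinc exporter, -0.29, adjusted p = 0.00292). Slc38a5 was a low transcript, at 0.896 to 1.82 CPM in ZT13 PBS mice and 2.48 to 3.95 CPM in ZT13 LPS mice. Also among the 9 was Abcb1b, the second gene for P-glycoprotein in mice (0.46, adjusted p = 0.00759). Abcb1a and Abcb1b are close paralogs, so reads shared by both may have been assigned to either. None of the 24 passed in the time or interaction comparisons, where 8 in PBS mice, 1 in LPS mice and 3 in the interaction had an unadjusted p under 0.05 (limma), beside 13.5%, 10.6% and 9.25% of all genes. Transporters mainly of neurons and glia, a list of 12, had 3 higher and 3 lower at ZT1 and 3 higher and 8 lower at ZT13, beside the same shares of all genes.

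Cell markers moved with LPS as well. Of 14 endothelial markers 10 rose and 1 fell at ZT1, with a median log2 fold change of 0.74 (0.83 and the same counts without ZT1 LPS replicate 2), and all 14 rose at ZT13, with a median of 1.27. In PBS mice the most abundant of them were Flt1 (61.5 CPM at ZT1 and 43.8 at ZT13) and Ptprb (54.0 and 48.9 CPM), with Vwf at 27.2 and 29.8 CPM. Over all 16 mice Vwf and Ptprb were highest, an order to which the LPS mice contribute. Vwf rose by 1.75 and 1.93. Ptprb changed by 0.02 (limma adjusted p = 0.972) at ZT1 and rose by 0.49 at ZT13, and Flt1 fell by 0.32 (adjusted p = 0.00364) at ZT1 and rose by 0.24 (adjusted p = 0.0435) at ZT13. Their summed level ran from 271 to 282 CPM in ZT1 PBS, 333 to 529 in ZT1 LPS, 211 to 237 in ZT13 PBS and 495 to 570 in ZT13 LPS mice, and none was at 0 in any group. The sums of LPS mice were thus above those of PBS mice, in the direction of the transporters that rose and opposite to Slc22a8. In PBS mice 3 endothelial markers (Cldn5, Kdr and Flt1) were lower at ZT13 and none was higher, the opposite direction to Slc2a1. In the interaction 6 endothelial markers passed as higher (4 without ZT1 LPS replicate 2), beside none of the 10 transporters. Mural cell markers, 8 in all, had 2 higher at ZT1 and 3 higher at ZT13, and choroid plexus markers, 7 in all, had none called at ZT1 and 1 higher (Aqp1) at ZT13. Meningeal markers, 7 in all, had 1 higher and 1 lower at ZT1 and 2 higher and 2 lower at ZT13. Astrocyte markers had 4 of 7 higher at both times, and their sums went from 1256 to 1350 CPM in PBS mice to 1799 to 2511 CPM in LPS mice. Most of this rise was in Gfap, at 111 to 123 CPM in PBS mice and 572 to 1134 CPM in LPS mice. Neutrophil markers summed to 0.455 to 1.43 CPM in PBS mice and to 7.61 to 67.9 CPM in LPS mice. Most of the LPS sums came from S100a8 and S100a9, at 18.6 and 47.3 CPM in ZT13 LPS replicate 4. Ly6g was at 0 in PBS mice and reached 0.152 CPM in LPS mice, where Camp reached 0.224 CPM. Mpo reached 0.833 CPM in PBS mice and 0.265 CPM in LPS mice, and Ngp 0.547 and 2.06 CPM. The part of these marker changes in the transporter results was not tested.

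**Figure D5:**
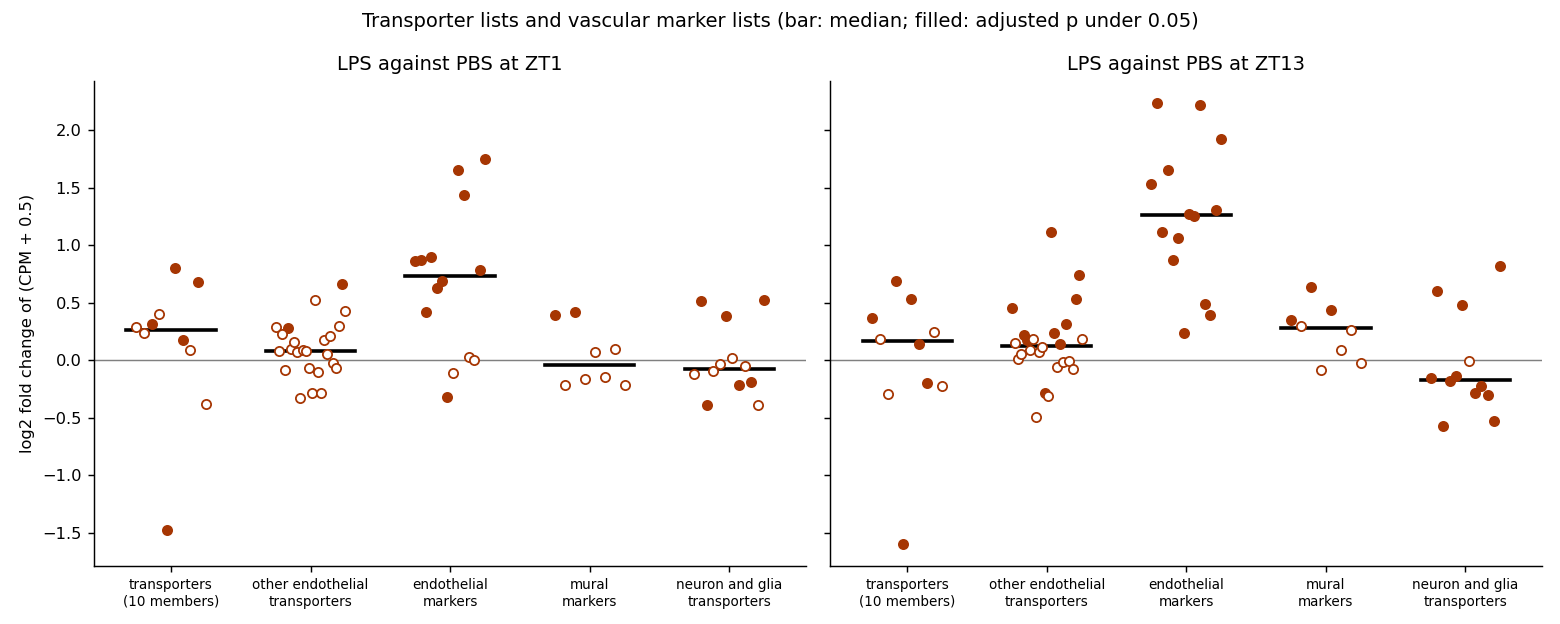
Log2 fold change of LPS against PBS at ZT1 (left) and ZT13 (right) for the 10 transporters, 24 other endothelial transporters, 14 endothelial markers, 8 mural markers and 12 neuron and glia transporters, 1 point per gene; bars are medians and filled points have an adjusted p under 0.05. Endothelial markers have the highest medians (0.74 and 1.27), the 10 transporters follow at ZT1 (0.27), and Slc22a8 is the lowest point in both panels.

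The genes whose log2 levels followed each transporter most closely over the 16 mice are given as a description, without a test, since the mice share treatments and the nearest of 18859 genes will always be close. Slc22a8 was most like Gpr26 (Pearson's r = 0.98), Unc13a (0.98) and Tyro3 (0.98), and Slc2a1 was most like Fam83d (0.98), Arhgef10 (0.97) and Tnxb (0.95). Slc16a1 was nearest to Hps5 (0.95), Slc3a2 to Cyth1 (0.93), Slc7a5 to Atp10a (0.88) and Mfsd2a to Mertk (0.88). Among the remaining 4, Slco1a4 was nearest to Rpa1 (0.89), Abcb1a to Fn1 (0.94), Abcg2 to Adam10 (0.91) and Slco1c1 to Utrn (0.96). With the 2 mice farthest from the median of the transporter left out, the values for Slc22a8 with Gpr26 and Slc2a1 with Fam83d were 0.98 and 0.95, and that for Slco1c1 with Utrn was 0.83. The mice left out for Slco1c1 included ZT1 LPS replicate 2.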

How the data were processed

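The authors deposited 1 table of CPM per gene and sample. Per the submitters' processing notes, bcl2fastq, DRAGEN 4.0.3-8 and GRCm38 were used; the counting step is not given in the sources used here. Each column summed to 1000000 over 55487 genes, after removal of 287 repeat lines. All 16 columns were used, grouped by sample title (AM as ZT1, PM as ZT13). From the spacing of low values, depth was 20251852 to 29112760 reads on genes, with a median of 22459621.5. Only 81.7% to 83.6% of the values of at most 20 reads equalled a whole number of reads (within 0.02), so counts could not be recovered and no count test was run.

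Genes reaching 1 CPM in 3 or more samples were compared on log2(CPM + 0.5) with limma 3.58.1 (R 4.3.3, intensity trend, Benjamini-Hochberg, threshold 0.05). Each pair of groups was fitted alone and the interaction on all 16 samples. The fit was tested on simulated data. The mice of a group are separate samples, and p-values measure the spread between them. The residual correlation between samples of different groups was -0.20 to 0.33 for the same replicate number and -0.21 to 0.19 for different numbers. The highest was between replicates 5 of the ZT1 LPS and ZT13 LPS mice. No pairing was used in the fits as reported, and no samples were identical. Alternatives were pseudocounts of 0.1 and 1, no filter, a minimum of 5 CPM, median-of-ratios factors, no trend, sample quality weights, the replicate block, 1 fit of all samples, and leaving out each mouse. With the replicate block, LPS against PBS rested on mice of the same number alone, and LPS mice with no such PBS mouse did not enter the estimate. Genes named are the 10 transporters, Gfap, Dbp and Per2, the extremes of the other endothelial transporters, the 3 genes most like each transporter (the nearest for most), and the 2 most abundant genes of the endothelial marker list, while other marker genes are named where a transporter result turns on them. The transporters and all gene lists were chosen with earlier results of these data known. Further lists, of 7 microglia, 6 oligodendrocyte, 6 neuron, 5 erythrocyte and 11 clock genes, are reported as counts. Tables were made with pandas 2.3.3 and numpy 2.4.6 in Python 3.11.15, and plots with matplotlib 3.10.9.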

Additional observations from a re-analysis of the deposited data

Results flagged for a closer look

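Of 20 sets of 5 LPS mice, a set being a transporter at a time, 2 held a mouse far from the others. The measure was the gap to its nearest neighbour over the range of the set, whose 95% critical value is 0.71. About 1 set in 20 is found apart by chance where sets are independent. These were not, since all transporters were measured in the same mice. Slc16a1 was 25.7 CPM in ZT13 LPS replicate 5 and 32.2 to 34.6 CPM in the other 4 mice (gap over range 0.732), and its log2 fold change without any 1 mouse stayed between 0.66 and 0.77 at ZT13. Slco1c1 was 7.03 CPM in ZT1 LPS replicate 2 and 25.4 to 30.0 CPM in the other 4 mice (gap over range 0.800). The same mouse had the lowest Slc16a1, Slc7a5, Slco1a4, Slc22a8, Abcb1a and Abcg2 of its group and the lowest summed endothelial markers, and the highest Mfsd2a.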

How the results depend on the processing

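Slc22a8, Slc2a1 (both times), Slc16a1 (ZT13) and Slco1a4 (ZT1) kept direction and call in the LPS comparisons under all 9 alternatives and with each mouse left out. The number of transporters called at ZT1, 5 as reported, was 3 with no filter and 3 with median-of-ratios factors, and 3 to 7 with 1 mouse left out (3 without ZT1 PBS replicate 2 or 3, 7 without ZT1 LPS replicate 2). At ZT13 the count stayed within 4 to 7 over the alternatives and 5 to 8 with 1 mouse left out. For time in PBS mice the count, 1 as reported, was 0 with no filter, 0 with no intensity trend and 3 with a minimum of 5 CPM, and 0 to 2 with 1 mouse left out. With the replicate number as a block the counts were 6 at ZT1, 7 at ZT13, 1 for time in PBS mice, 0 for time in LPS mice and 0 for the interaction. The share of all genes that passed is given for the fits as reported alone, so these counts have none beside them. The count of other endothelial transporters at ZT1, 2 as reported, was 7 with sample quality weights, 4 with the replicate block and 5 with 1 fit of all samples. Signs turned among differences that did not pass as reported: in the interaction, Slco1c1 to -0.060 and Abcb1a to -0.012 with sample quality weights, and Slc22a8 to 0.080 and Abcg2 to 0.11 with the replicate block. With 1 mouse left out the interaction ran from -0.20 to 0.30 for Slco1c1, -0.058 to 0.18 for Abcb1a, -0.11 to 0.00058 for Abcg2 and -0.27 to 0.011 for Slc22a8. The difference of ZT13 against ZT1 in LPS mice ran from -0.089 to 0.040 for Slc7a5, -0.15 to 0.082 for Abcb1a, -0.0062 to 0.19 for Slc16a1 and -0.11 to 0.011 for Mfsd2a. The cause of these changes was not tested. Depth gave at least 66 reads for each transporter in each sample.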

Other observations

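The marker lists of other cells gave these counts after LPS. Microglia markers, 7 in all, had 5 higher and 2 lower at both times, the lower being P2ry12 and Siglech. Oligodendrocyte markers, 6 in all, had 1 higher and 2 lower at ZT1 and 1 higher and 4 lower at ZT13. Neuron markers, 6 in all, had 1 lower at ZT1 and 4 lower at ZT13, and none of 5 erythrocyte genes passed in any comparison by limma, with none at an unadjusted p under 0.05. Of 6 neutrophil markers 3 were tested, and 2 rose at ZT1 and 3 at ZT13. Of 11 clock genes, 3 rose at ZT1, 2 rose and 3 fell at ZT13, 4 were higher and 1 lower at ZT13 in PBS mice, and 3 were lower in the interaction.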
